A study of Rattus norvegicus with 6 samples.

Results

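The chemokines and inflammatory cytokines described here are 10 genes of the rat: the chemokines Ccl2, Cxcl1, Cxcl10, Cxcl12 and Cx3cl1, the colony stimulating factor Csf1 and its relative in receptor use Il34, and the cytokines Il1b, Il6 and Tnf. Their transcript levels were followed in cortex from the kidneys of 6 male rats of the Sprague-Dawley (Crl:CD(SD)) stock, which is outbred; the animals were 5 weeks old when bought and ate a basal diet. For 4 weeks 3 rats received corn oil (control) and 3 received 1,2-dibromoethane, a brominated hydrocarbon once used to fumigate soil, at 75 mg/kg/day. Each animal gave 1 single-colour Agilent array, so the 3 values of a group are 3 animals. The members were all probes, other than control spots, whose accession maps to one of the 10 genes: 16 probes, of 61453 analysed. All 10 genes, of 15645 named on the array, had at least 1 probe; 5 had 1 probe and 5 had several.

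Chemokines are small secreted proteins that guide leukocytes along a gradient by binding G protein-coupled receptors on the cells they attract. In the kidney, tubular and endothelial cells as well as resident macrophages can make them, and transcription of many of them is driven by NF-kB downstream of the receptors for IL-1 and TNF. Ccl2 attracts monocytes, Cxcl1 neutrophils and Cxcl10 activated T cells and natural killer cells, whereas Csf1 and Il34 keep macrophages alive through the shared receptor Csf1r.

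A level is the log2 of the processed signal minus the log2 of the 75th percentile of the same array, so that 0 is the signal of the probe at that percentile. Levels of different probes are not on a common scale and are compared only between animals. Between 59.2% and 67.7% of the probes of an array were flagged well above background by the scanner software, and 0 were saturated. Arrays of the same group correlated at r = 0.989 to 0.993 across features and arrays of different groups at r = 0.988 to 0.992, and features are not independent replicates. There were 3 slides. On slide 1 were 2 controls (replicates 1 and 2) with dibromoethane replicate 2, on slide 2 control replicate 3 with dibromoethane replicate 1, and on slide 3 the third treated animal alone. Slides 1 and 3 were scanned on 1 day and slide 2 on another, so slide 2 and its scan day cannot be told apart. All 10 markers of the proximal tubule, the main cell type of the labelled tissue, were measured.

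None of the 10 genes passed the test over the whole table, and the smallest p among them belonged to Ccl2 and Csf1. Ccl2 was 1.80-fold and Csf1 1.42-fold higher in treated rats, each higher in 3 of 3 animals than in any control. Cxcl1, Cxcl10 and Tnf had positive differences with wide intervals, Cx3cl1 and Cxcl12 had small negative ones, Il1b and Il34 lay close to 0, and Il6 gave no signal well above background in any animal. In all 9 genes were tested, 0 with an adjusted p under 0.05 in limma, against 0.0311% of the 28961 features; 7 had a positive log2 fold change (46.5% of all features). At an unadjusted p under 0.05 there were 3 higher (4.53% of all features) and 1 lower (6.64%). The animals of both groups did not overlap for 6 of the 9 genes (19.5% of all features), 4 higher (7.37% of all features) and 2 lower (12.1%). The median log2 fold change of the 9, each well above background on all 6 arrays, was 0.43, beside -0.02 over all features. Within the slides that held both groups that median was smaller, 0.24 on slide 1 and 0.04 on slide 2 (-0.03 over all features on either slide). The 10 genes were chosen with earlier results of these data known, so these counts, shares and medians describe them and are not a test. In a bulk sample more transcript per cell and more cells of a type cannot be told apart.

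**Figure D1:**
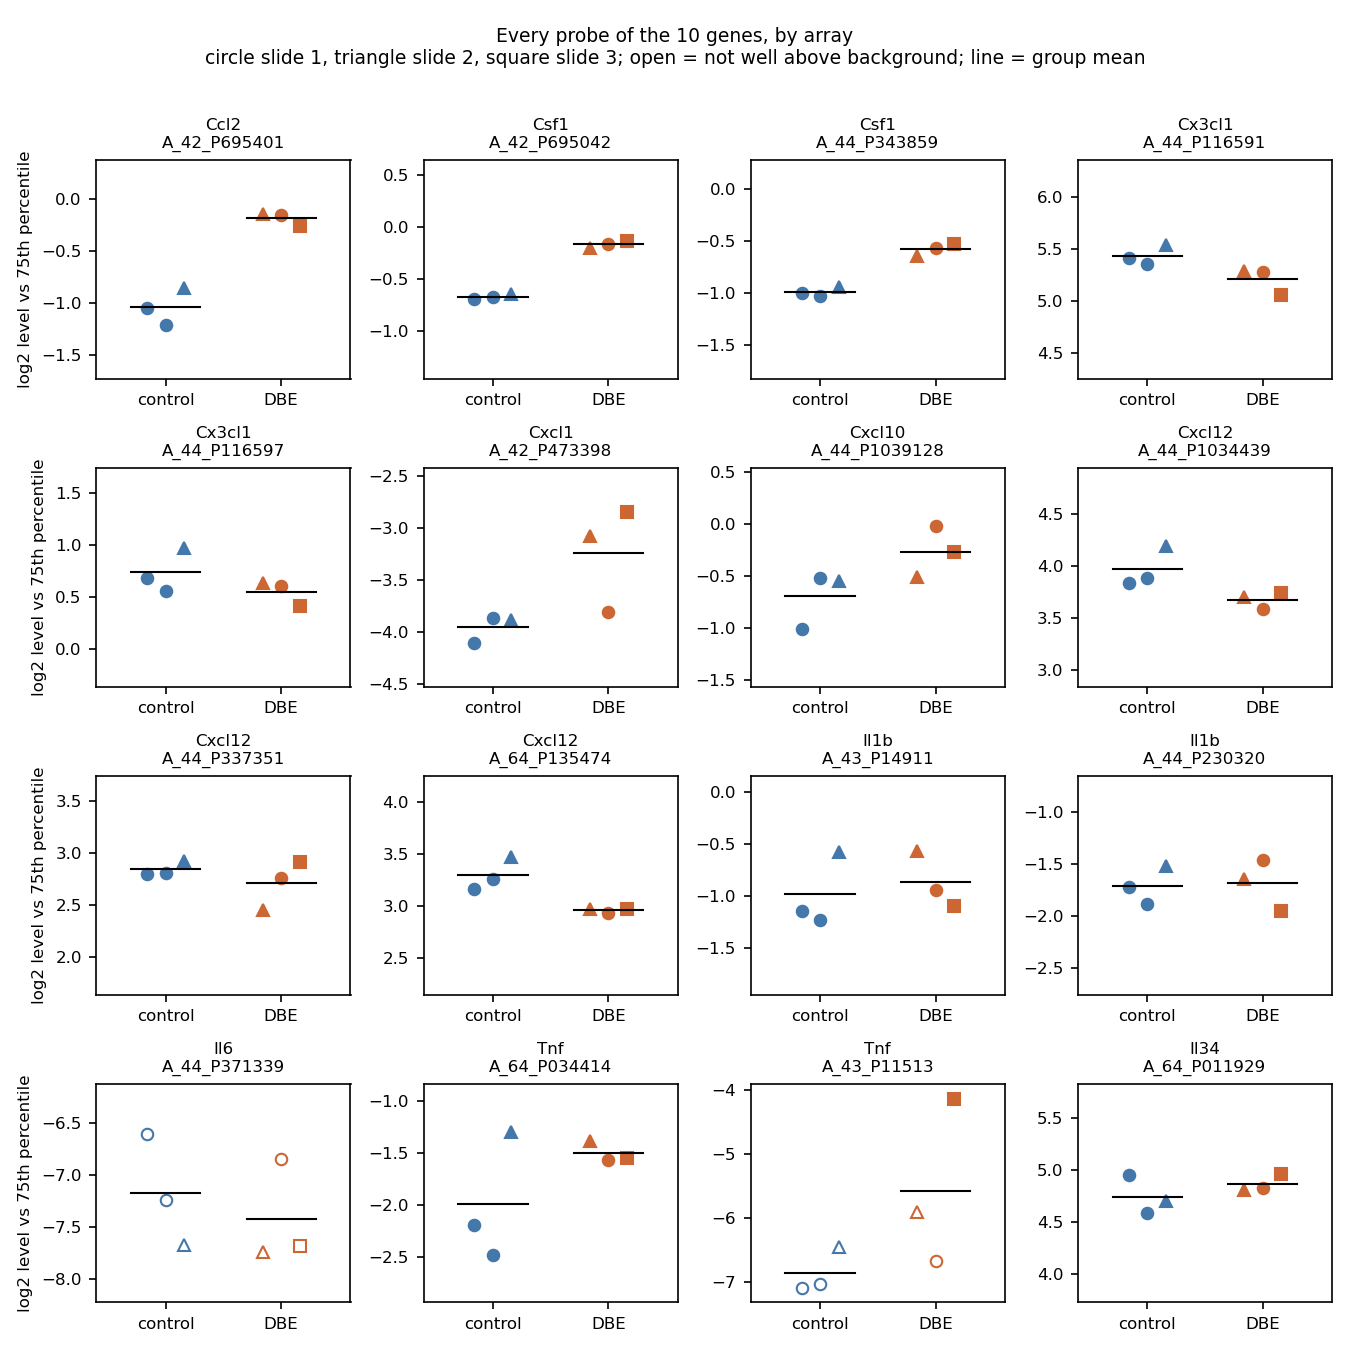
Log2 level relative to the array's 75th percentile (vertical axis, a separate range for each panel) of all 16 probes in control and 1,2-dibromoethane (DBE) rats; each point is 1 animal, its shape gives the slide, open points were not well above background, and lines are means of 3. The Ccl2 probe and both Csf1 probes separate the groups without overlap, whereas the brighter Tnf probe has control replicate 3 (-1.29) above all treated animals.

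Ccl2, the main monocyte chemoattractant, had levels of -1.04, -1.21 and -0.85 in control replicates 1 to 3 and of -0.15, -0.15 and -0.26 in dibromoethane replicates 1 to 3. The lowest treated animal thus lay above the highest control. The means were -1.03 ± 0.18 (SD, n = 3) and -0.18 ± 0.06 (SD, n = 3), a log2 fold change of 0.85 (SE 0.11; 95% interval of the fold 1.50 to 2.16; limma adjusted p = 0.19). By its unadjusted p Ccl2 ranked 33 among the 28961 features. The difference was 0.98 within slide 1 and 0.70 within slide 2. The array holds 1 Ccl2 probe, so no second probe was at hand for this gene.

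Csf1, the growth and survival factor of macrophages, varied less within either group than Ccl2 did. Its brighter probe, A_42_P695042, gave -0.68, -0.67 and -0.64 in controls and -0.20, -0.16 and -0.13 in treated rats. The 2 groups are separated by a gap many times the SD within either, 0.02 in controls and 0.04 in treated rats. The log2 fold change was 0.50 (SE 0.06; 95% interval of the fold 1.27 to 1.58; limma adjusted p = 0.196), which ranked 34 by unadjusted p. The other probe, A_44_P343859, gave levels between -1.02 and -0.94 in controls and -0.64, -0.57 and -0.53 in treated rats. It also separated the groups, with a log2 difference of 0.41 (SE 0.07; limma adjusted p = 0.221 when each probe was tested by itself). Within slide 1 the brighter and the other probe gave 0.51 and 0.44, and within slide 2 they gave 0.44 and 0.30.

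Il34, the second ligand of the Csf1 receptor, is made in the kidney mainly by tubular cells. Its probe read 4.95, 4.59 and 4.70 in controls and 4.81, 4.83 and 4.97 in treated animals, and the groups overlapped. Its log2 fold change was 0.12 (95% interval -0.15 to 0.40; limma adjusted p = 0.705). Leaving out control replicate 1 gave 0.22, leaving out control replicate 2 gave 0.04, and leaving out dibromoethane replicate 3 gave 0.07. Quantile normalization gave 0.20. Csf1r itself, the receptor of both ligands, had a log2 fold change of 0.05 (95% interval -0.12 to 0.21; limma adjusted p = 0.82).

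Cxcl1, a neutrophil chemoattractant, was dim. It read -4.10, -3.86 and -3.88 in controls and -3.07, -3.80 and -2.84 in treated rats, all 6 well above background. Dibromoethane replicates 1 and 3 were high, and replicate 2 lay just above the highest control. The treated mean was higher by 0.71 on the log2 scale (SE 0.25; limma adjusted p = 0.404), but the difference was 0.18 within slide 1 and 0.81 within slide 2. It was 0.30 with normexp background correction, in which an added offset of 50 compresses the range of dim signals, and 0.45 with slide as a fixed block.

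Cxcl10, a chemokine induced by interferons, read -1.01, -0.52 and -0.55 in controls and -0.51, -0.02 and -0.27 in treated animals. The groups did not overlap, but dibromoethane replicate 1 and control replicate 2 were almost level. The log2 fold change was 0.43 (95% interval -0.02 to 0.87; limma adjusted p = 0.461), and it was 0.74 within slide 1, 0.04 within slide 2 and 0.27 without control replicate 1. Cxcl9 and Cxcl11, its neighbours in the gene order of the GRCr8 assembly and ligands of the same receptor, had log2 fold changes of -0.07 (SE 0.44) and -0.31 (SE 0.21).

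Promoter sequence was at hand for 7 of the 10 genes, as RefSeq windows of 300 bases in the GRCr8 assembly (250 before and 50 after the gene's start); Ccl2, Csf1 and Il34 were not matched. They were searched on both strands for the NF-kB motif (GGG and TTTCC with any pair of bases between), the AP-1 motif TGANTCA and the interferon response motif (GAAA, any pair of bases and GAAA again). The windows of the 3 genes with a match are shown here, with the matches in capitals. Inflammatory signals are commonly read through motifs of these kinds, but a match of letters is not a measured site. None of these matches overlaps another.
Cxcl1: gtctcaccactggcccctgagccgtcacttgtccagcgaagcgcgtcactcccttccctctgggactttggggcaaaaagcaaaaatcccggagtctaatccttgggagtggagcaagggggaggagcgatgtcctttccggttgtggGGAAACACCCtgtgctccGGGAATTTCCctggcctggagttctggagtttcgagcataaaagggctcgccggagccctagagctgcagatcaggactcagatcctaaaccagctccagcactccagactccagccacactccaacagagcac
Cxcl10: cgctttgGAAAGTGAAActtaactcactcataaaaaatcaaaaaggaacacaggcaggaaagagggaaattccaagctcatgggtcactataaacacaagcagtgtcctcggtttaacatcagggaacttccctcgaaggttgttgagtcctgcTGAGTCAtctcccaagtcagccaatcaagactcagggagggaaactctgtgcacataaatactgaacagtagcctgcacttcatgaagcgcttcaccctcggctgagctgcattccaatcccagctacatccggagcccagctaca
Il6: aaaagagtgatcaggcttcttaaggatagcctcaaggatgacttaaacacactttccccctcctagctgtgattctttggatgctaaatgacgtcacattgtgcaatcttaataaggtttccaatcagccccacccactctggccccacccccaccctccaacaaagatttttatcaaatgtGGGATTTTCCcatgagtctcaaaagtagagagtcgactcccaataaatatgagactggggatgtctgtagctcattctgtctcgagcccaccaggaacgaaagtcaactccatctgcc
The Cxcl1 window lies at chr14:17479272-17479571 on the minus strand. It holds the NF-kB motif on both strands, as GGAAACACCC from 102 bases before the start and as GGGAATTTCC from 84 bases before it. The Cxcl10 window lies at chr14:15988816-15989115 on the plus strand and holds the interferon motif, GAAAGTGAAA, and 1 AP-1 match, TGAGTCA. The Il6 window lies at chr4:5894526-5894825 on the minus strand and holds GGGATTTTCC from 68 bases before the start. Among all 33469 windows of the table, 1.53% hold the NF-kB motif, 7.33% the AP-1 motif and 3.92% the interferon motif. No match was found in the windows of Cx3cl1, Cxcl12, Il1b and Tnf, which says only that these letters are not in them. The same holds for a motif without a match in a window shown, such as NF-kB in that of Cxcl10. Binding was not measured, and of the genes shown Cxcl1 and Cxcl10 had positive differences that did not pass while Il6 was below background.

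Cx3cl1, a chemokine anchored in the membrane that holds and feeds cells carrying Cx3cr1, had a negative difference that did not pass. Its brighter probe, A_44_P116591, read 5.41, 5.36 and 5.54 in controls and 5.29, 5.28 and 5.06 in treated rats, so that all treated animals lay below all controls. This amounted to a log2 fold change of -0.23 (SE 0.10; limma adjusted p = 0.458). The other probe, A_44_P116597, read 0.68, 0.56 and 0.96 against 0.63, 0.60 and 0.41, which overlapped, with a difference of -0.19 (SE 0.13). Within slide 1 the brighter probe gave -0.10 and within slide 2 -0.26, and quantile normalization gave -0.15.

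Cxcl12, a constitutive chemokine that retains cells in tissue through Cxcr4, was represented by 3 probes. The brightest, A_44_P1034439, read 3.83, 3.88 and 4.19 in controls and 3.70, 3.58 and 3.74 in treated rats. A_64_P135474, designed on the same transcript record, read 3.16, 3.25 and 3.47 against 2.97, 2.93 and 2.97. On both probes all treated animals lay below all controls, with log2 fold changes of -0.29 (SE 0.12; limma adjusted p = 0.433) and, when each probe was tested by itself, -0.34 (SE 0.10; limma adjusted p = 0.361). The third probe, A_44_P337351, was designed on another transcript record of the gene and read 2.80, 2.81 and 2.93 against 2.45, 2.76 and 2.91. It overlapped between the groups, with a difference of -0.13 (SE 0.13). Without control replicate 3, the highest control on all 3 probes, the brightest probe gave -0.18. A difference between the records was not tested.

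Tnf and Il1b are the upstream cytokines of the acute response, released by macrophages and able to induce Ccl2 and Cxcl1 in neighbouring cells. The Tnf probe A_64_P034414 read -2.19, -2.47 and -1.29 in controls and -1.38, -1.57 and -1.54 in treated rats. Control replicate 3 was the highest of all 6 animals, while control replicates 1 and 2 were the lowest. The log2 fold change was 0.49 (95% interval -0.24 to 1.22; limma adjusted p = 0.569), with 0.77 within slide 1 and -0.08 within slide 2. It was 0.84 without control replicate 3 and 0.25 without control replicate 2. The second Tnf probe, A_43_P11513, stood well above background on 0 of 3 control arrays and 1 of 3 treated arrays, dibromoethane replicate 3, where it read -4.14; the other 5 animals lay between -7.08 and -5.90. The gene was therefore measured by 1 probe only.

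Il1b read -1.14, -1.23 and -0.58 in controls and -0.57, -0.95 and -1.10 in treated rats on its brighter probe, A_43_P14911. The 2 animals on slide 2, control replicate 3 and dibromoethane replicate 1, were the highest, at nearly the same level. The log2 fold change was 0.11 (95% interval -0.43 to 0.65; limma adjusted p = 0.872), 0.24 within slide 1 and 0.01 within slide 2. It turned negative without control replicate 2 (-0.01) and without dibromoethane replicate 1 (-0.04), and was 0.31 without control replicate 3. The other probe, A_44_P230320, read -1.72, -1.89 and -1.52 against -1.65, -1.46 and -1.95, a difference of 0.02 (SE 0.16). Il6, a cytokine that drives the acute phase response, had 1 probe with readings from -7.75 to -6.61 that was not well above background on any of the 6 arrays, so no fold is given.

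**Figure D2:**
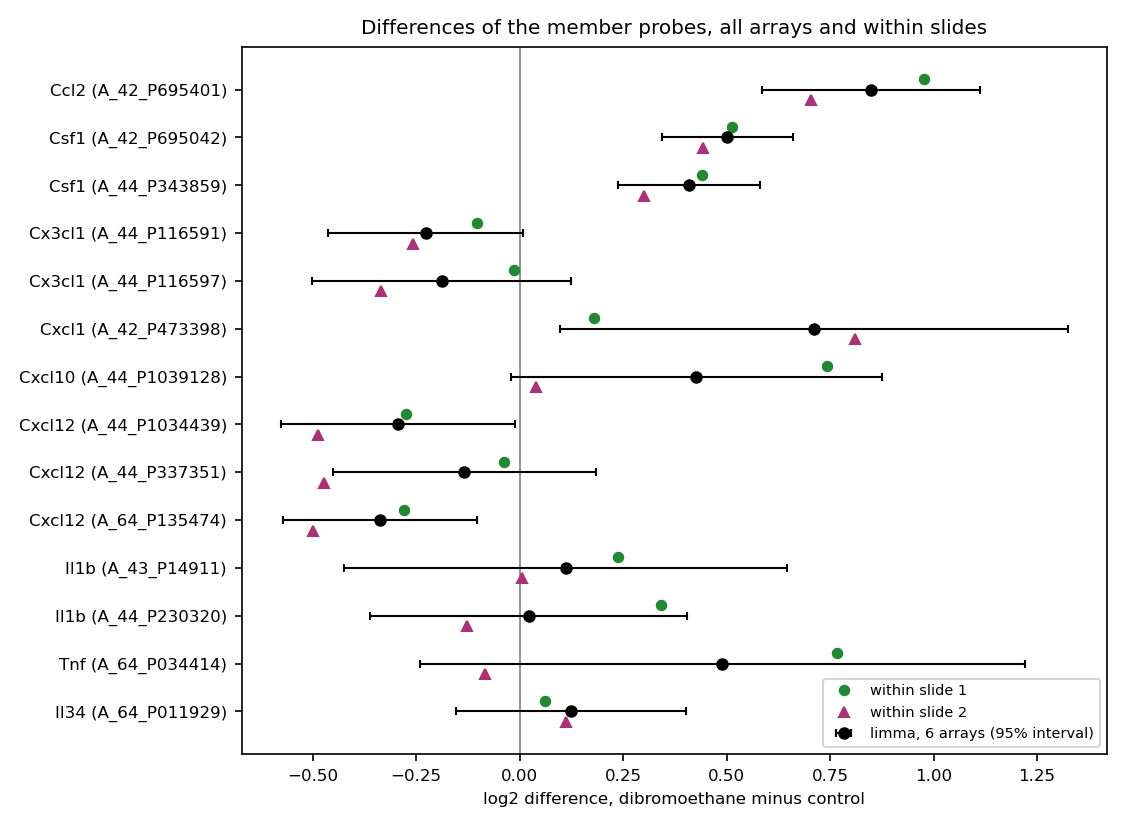
Log2 difference (dibromoethane minus control, horizontal axis) of the 14 member probes well above background on all 6 arrays: black points are limma estimates with 95% intervals, green circles the difference within slide 1 and purple triangles that within slide 2. The Ccl2 probe (0.98 and 0.70) and both Csf1 probes keep similar values within both slides, while the Tnf probe gives 0.77 on slide 1 and -0.08 on slide 2.

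The receptors through which the 10 genes act had differences on both sides of 0. Of 18 receptor genes 16 were on the array and 11 were measured; 0 passed in limma (1 higher and 0 lower at an unadjusted p under 0.05), 4 were positive and 7 negative, with a median of -0.10. Ccr2, the receptor of Ccl2, reached a signal well above background in 1 of 6 animals, and Cxcr1 and Cxcr2, which bind Cxcl1, in 0. Cxcr3, the receptor of Cxcl10, had a log2 fold change of -0.26 (SE 0.32), Cxcr4 one of -0.25 (SE 0.19), and Ackr3, the scavenging receptor of Cxcl12, one of 0.30 (SE 0.19). Cx3cr1, carried by kidney macrophages, read -0.42, -0.79 and -0.18 in controls and -0.25, -0.29 and 0.13 in treated rats, a log2 fold change of 0.33 (95% interval -0.14 to 0.79; limma adjusted p = 0.551).

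The signalling receptors of TNF, IL-6 and IL-1 gave -0.19 (SE 0.09) for Tnfrsf1a, -0.03 (SE 0.11) for Tnfrsf1b, -0.10 (SE 0.29) for Il6r, -0.10 (SE 0.09) for Il6st and -0.32 (SE 0.19) for Il1rap. Only Tnfrsf1a among these 5 had groups that did not overlap, at 1.78, 1.87 and 1.82 in controls and 1.64, 1.50 and 1.75 in treated rats. Among the 11 measured receptor genes the widest difference belonged to Sdc1, a heparan sulphate proteoglycan of epithelial and plasma cells that also binds Il34. Sdc1 read 1.82, 2.42 and 2.04 in controls and 3.13, 3.30 and 2.61 in treated rats, without overlap. Its log2 fold change was 0.92 (SE 0.23; limma adjusted p = 0.329), 1.18 within slide 1 and 1.09 within slide 2.

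Among the other chemokines, 22 of 29 listed genes were measured; 0 passed in limma (2 higher and 2 lower at an unadjusted p under 0.05), 9 were positive and 13 negative, with a median of -0.06. Ccl9, which attracts cells carrying Ccr1, had the smallest p of them and read -4.51, -3.87 and -3.94 in controls and -1.98, -2.91 and -2.89 in treated rats. All treated animals lay above all controls, with a log2 fold change of 1.51 (SE 0.31; limma adjusted p = 0.255), which normexp background correction reduced to 0.87. Ccl17 followed at 0.35 (SE 0.11; limma adjusted p = 0.371), 0.08 with normexp, and Xcl1, a product of T and natural killer cells, at -0.73 (SE 0.25; limma adjusted p = 0.392), which was -0.52 within slide 1 and -0.61 within slide 2.

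Ccl7, Ccl11 and Ccl12 follow Ccl2 in the gene order of the assembly, and like it they encode attractants of monocytes or eosinophils. Ccl12 read -4.84, -4.83 and -3.66 in controls and -3.23, -3.995 and -3.39 in treated rats, which overlapped; its log2 fold change was 0.90 (SE 0.37; limma adjusted p = 0.451), or 0.40 with normexp. Ccl11 had a log2 fold change of 0.33 (SE 0.38; limma adjusted p = 0.761). Ccl7 was above that limit in 0 of 3 controls and 2 of 3 treated rats. It stood at -1.72 in dibromoethane replicate 1, while the other 5 animals lay between -5.54 and -4.98. A likeness between the patterns of these 4 genes was not tested. Ccl7, Ccl11 and Ccl12 are named for their position next to Ccl2, a choice made after their values were seen.

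Of 18 other cytokines 11 were measured, and 0 reached an adjusted p under 0.05 in limma and 0 an unadjusted one under 0.05. Of these 8 were positive and 3 negative, with a median of 0.11 and a range from -0.20 to 0.42. Tgfb2, 1 of the 8, was well above background on 2 of 3 control and 3 of 3 treated arrays. Without it 7 were positive and 3 negative, with a median of 0.08. Lif, a cytokine of the IL-6 family, had the smallest p, a difference of 0.42 (SE 0.19; limma adjusted p = 0.469), and groups that did not overlap. Mif, a macrophage migration inhibitory factor abundant in tubules, gave 0.20 (SE 0.09) and Csf3, the granulocyte growth factor, -0.20 (SE 0.17). Il1a, Il7, Il12b and Ifng were below that limit in all 6 animals, and Il10 in 5.

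NF-kB signalling genes split in both directions, with 7 positive and 10 negative of 17 measured, 0 called in limma (1 higher and 1 lower at an unadjusted p under 0.05) and a median of -0.02. Nfkbia, the inhibitor of NF-kB that is itself one of its rapid targets, read 1.93, 2.20 and 1.47 in controls and 1.40, 1.29 and 1.18 in treated rats. All treated animals lay below all controls, by -0.58 in the mean (SE 0.19; limma adjusted p = 0.382), but the difference was -0.78 within slide 1 and -0.07 within slide 2. Bcl3, a nuclear cofactor of NF-kB, read 1.04, 1.00 and 1.00 in controls and 1.30, 1.50 and 1.25 in treated rats, also without overlap, a difference of 0.33 (SE 0.09; limma adjusted p = 0.347). Chuk, a kinase of the pathway, gave -0.16 (SE 0.09).

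Targets and feedback regulators of these cytokines gave 8 positive and 4 negative of 12 measured, 0 called in limma (0 at an unadjusted p under 0.05), with a median of 0.06. The endothelial adhesion genes Icam1 and Vcam1 had log2 fold changes of 0.19 (SE 0.12) and -0.20 (SE 0.12). The IL-1 antagonist Il1rn gave 0.07 (SE 0.13) and the feedback inhibitor Socs3 0.00 (SE 0.26). Sele and Selp, selectins of activated endothelium, gave no signal well above background in any animal. Proteases and inflammasome genes that release or trim the cytokines gave 1 positive and 7 negative of 8 measured, 0 called in limma (1 higher at an unadjusted p under 0.05), with a median of -0.06. The positive one was Mmp2, a gelatinase that cleaves Cxcl12 and Ccl7, which read 0.61, 0.63 and 1.43 in controls and 1.64, 1.70 and 1.71 in treated rats. Its difference was 0.79 (SE 0.23; limma adjusted p = 0.359), with 1.08 within slide 1 and 0.21 within slide 2. Adam10, which sheds Cx3cl1, gave -0.17 (SE 0.10), Adam17, which sheds Tnf, -0.00 (SE 0.10), the gelatinase Mmp9 -0.28 (SE 0.21), and Casp1, which matures Il1b, -0.01 (SE 0.12).

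**Figure D3:**
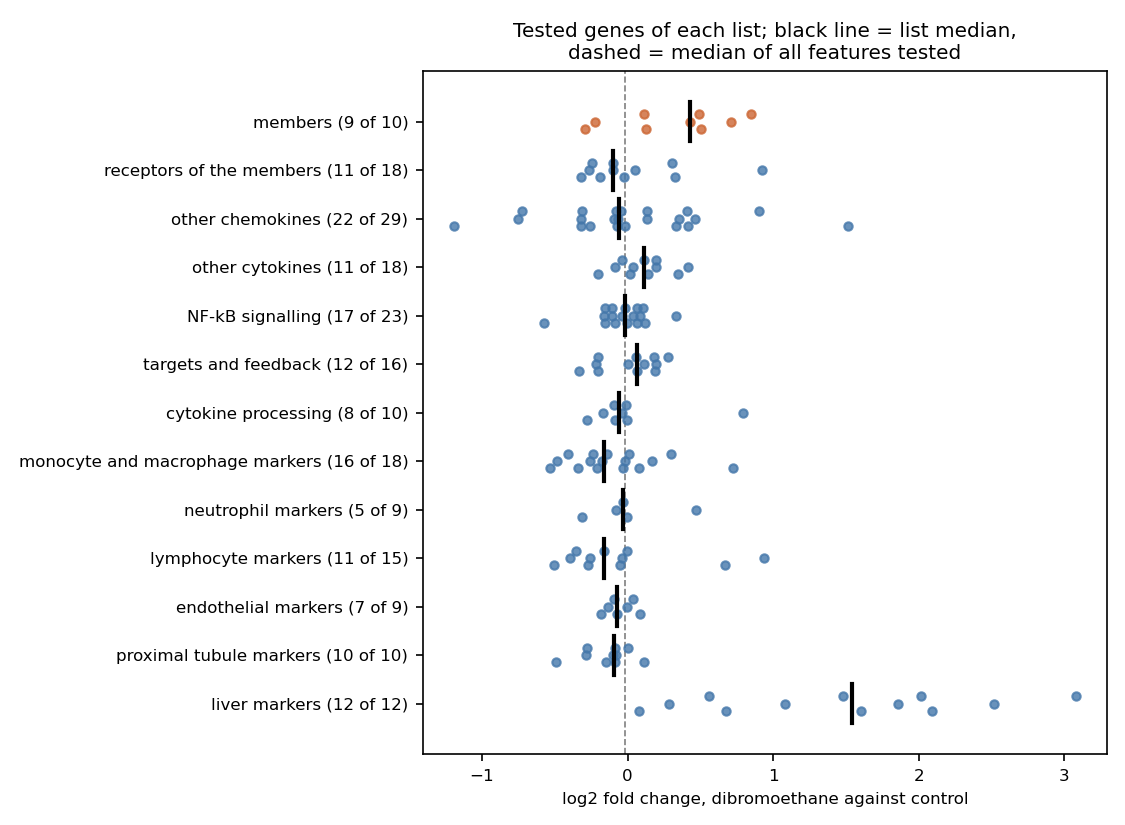
Log2 fold change (dibromoethane against control, horizontal axis) of each measured gene in the 10-member group (orange) and in 12 comparison lists (blue), with the number measured of the number listed; black lines are list medians and the dashed line the median of all features. The members' median lies at 0.43 (0.24 within slide 1 and 0.04 within slide 2) and the receptors' at -0.10. That of the liver markers lies at 1.54, or 1.08 for the 9 well above background on all 6 arrays.

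Markers of the cells that Ccl2 and Csf1 act on had a negative median over all arrays and on slide 2 (-0.30) but one of -0.00 on slide 1. Of 18 monocyte and macrophage markers 16 were measured, 0 passed in limma (0 higher and 4 lower at an unadjusted p under 0.05), and 5 were positive and 11 negative with a median of -0.16. Their summed linear signal, in units of the array's 75th percentile, ran from 158 to 181 in controls and from 146 to 179 in treated rats. Such a sum is weighted to the brightest probes of a list. The 5 with groups that did not overlap were all lower in treated rats, against 12.1% of all features. Among them the complement genes of macrophages C1qa, C1qb and C1qc had log2 fold changes of -0.54 (SE 0.13; limma adjusted p = 0.319), -0.48 (SE 0.09; limma adjusted p = 0.248) and -0.41 (SE 0.11; limma adjusted p = 0.347). Laptm5, a lysosomal membrane protein of leukocytes, gave -0.34 (SE 0.08; limma adjusted p = 0.33). The pan-macrophage genes Cd68 and Adgre1 gave -0.03 (SE 0.08) and -0.14 (SE 0.17). Itgam, of infiltrating myeloid cells, was well above background on 1 of 3 control and 3 of 3 treated arrays and so entered the test through the treated group. Its difference was 0.13 with normexp, 1.58 within slide 1 and -0.31 within slide 2, and its sign is not read by itself. Itgam is counted among the 5 positive markers. Without it 4 were positive and 11 negative, with a median of -0.18. These 4 were Mrc1 at 0.29 (SE 0.39), Cd14 at 0.17 (SE 0.16), Lyz2 at 0.08 (SE 0.09) and Cd74 at 0.01 (SE 0.20). Cd163 gave no signal well above background.

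Neutrophil markers, the cells drawn by Cxcl1, gave 1 positive and 4 negative of 5 measured, with summed signals of 2.65 to 3.24 in controls and 2.72 to 2.87 in treated rats; Elane and Cxcr2 gave no signal well above background. On the log2 scale S100a8 differed by -0.31 (SE 0.16) and S100a9 by -0.08 (SE 0.15). Csf3r, the positive one, was well above background on 2 of 3 control and 3 of 3 treated arrays. It gave 0.47 (SE 0.26), or 0.13 with normexp. Without Csf3r 0 were positive and 4 negative. Lymphocyte markers gave 2 positive and 9 negative of 11 measured, with summed signals of 2.99 to 3.54 and 2.66 to 3.28. Cd79b entered the test through the treated group and Klrb1a through the controls. Without these 2 genes 1 was positive and 8 were negative. Of the natural killer cell genes, Nkg7 gave -0.36 (SE 0.17), and Klrb1a, well above background on 3 of 3 control but 1 of 3 treated arrays, gave -0.50 (SE 0.24), or -0.20 with normexp and -0.03 within slide 1. Endothelial markers, of a cell type that makes Cx3cl1 and Cxcl12, gave 2 positive and 5 negative of 7, with sums of 34.9 to 38.2 and 36.1 to 38.9, and -0.18 (SE 0.13) for Tie1, 0.09 (SE 0.07) for Kdr and -0.09 (SE 0.09) for Pecam1. In limma 0 genes of these 3 lists passed, and 1 had an unadjusted p under 0.05.

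The sums of 2 further marker lists did not overlap between the groups. Liver markers were higher in treated rats in 12 of 12 genes (46.5% of all features), with a median log2 fold change of 1.54. In limma 0 were called and 6 were higher at an unadjusted p under 0.05 (4.53% of all features). Of the 12, 3 (Apoa2, Serpina1 and Fgg) entered the test through the treated group, where they were high. Apoa2 and Fgg were among the 6. The other 9 of the list had a median of 1.08. The plasma protein genes Ttr and Apoa1 gave 3.08 (SE 0.98) and 1.60 (SE 0.55). Apoa2, one of the 3, gave 2.01 (SE 0.62), or 1.00 with normexp. The summed signal of all 12, those 3 included, was 22.6, 34.8 and 33.0 in controls and 72.9, 40.6 and 35 in treated rats. The gap was narrow, from 34.8 in control replicate 2 to 35 in dibromoethane replicate 3. The sum was highest in dibromoethane replicate 1, the only treated animal on slide 2. Ccl7 and Ccl9 were also highest in this animal. Among treated rats the brightest probes of Cx3cl1, Il1b and Tnf read highest in it, and those of Csf1, Cxcl10 and Il34 lowest. Proximal tubule markers were lower in 9 of 10 genes, with a median of -0.09, while 46.5% of all features had a positive log2 fold change. In limma 0 were called, and 3 were lower at an unadjusted p under 0.05 (6.64% of all features). The groups did not overlap for 5 of the 10, all lower (12.1% of all features). Their sums were 1898 to 1948 in controls and 1732 to 1776 in treated rats. The organic anion transporter Slc22a6, the creatine synthesis enzyme Gatm and the water channel Aqp1 gave -0.28 (SE 0.07), -0.49 (SE 0.13) and -0.28 (SE 0.10). The part of the liver and tubule markers in the values of the chemokine and cytokine genes was not tested.

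**Figure D4:**
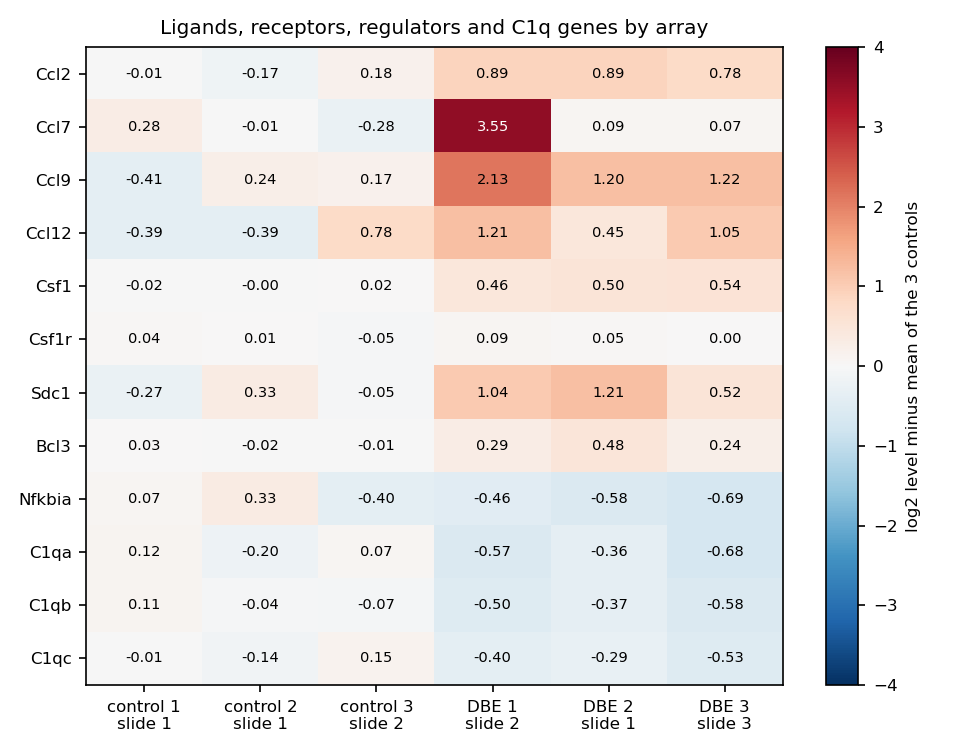
Log2 level minus the mean of the 3 controls (colour and printed value) of 12 genes in each array, with DBE for 1,2-dibromoethane; the genes were chosen after their values were seen. Ccl2 (0.78 to 0.89) and Csf1 (0.46 to 0.54) are even across the treated animals, Ccl7 is high in 1 (3.55), and the C1q genes are lower in all 3 than in any control.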

How the data were processed

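Cy3-labelled cRNA from total RNA of the cortex was put on single-colour arrays, per the labels' protocols. The deposited scanner tables hold intensity values, background-subtracted by Agilent Feature Extraction 10.7.1.1 on design 045522 (grid build rn4), per the file headers; the other flags in them (background, outlier, saturation) were deposited with them. The submitters' processing notes name version 10.7. The deposited series table holds intensity too and equals the processed signal over the 75th percentile of its array (log2 values correlate at r = 1.00; the scale is linear, genes are not centred), with medians of 0.101, 0.102, 0.112, 0.110, 0.105 and 0.107.

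Accessions without versions were matched to RefSeq transcripts of GRCr8, used only for names, gene order and promoter windows: 28206 of 61453 probes received 1 symbol. The 1439 control spots and 84 spike-in probes were left out, and outlier spots (1 to 11 per array) were set to missing. The brightest probe stood for a gene, an unmatched probe for itself. The 28961 features that were well above background in every animal of either group were tested with limma 3.58.1 in R 4.3.3 (degrees of freedom: 4 residual, 2.05 prior), no covariate, two-sided, Benjamini-Hochberg adjustment over all features, threshold 0.05. The scripts were tested on simulated data. With 3 arrays per group, their number limits the precision.

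The members, the gene lists and the rule for named genes (all members, their measured receptors and the 3 smallest p per list, some of which are not reported here) were chosen with earlier results of these data known; the genes named besides these were chosen after their values were seen. Not all genes of the receptor and NF-kB lists were matched (Ackr1, Il1r1, Nfkb1, Rel, Relb, Nfkbiz and Tnfaip3 are not analysed here). Alternatives were other scalings, normexp (run on the median spot signal), filters, probe rules, slide, scan day or replicate number as a block, variance models, the series table and leaving out each array.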

Additional observations from a re-analysis of the deposited data

How the results depend on the processing

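Under the 21 alternatives, 0 of the 10 genes and 0 genes of the pathway lists passed in limma, as with all arrays; the smallest adjusted p of a member was 0.0967 (Ccl2, with trend and robust). Ccl2 ranged from 0.71 to 0.94 on the log2 scale and Csf1 from 0.44 to 0.52. The sign changed in 2 cases, both for Il1b: -0.0129 without control replicate 2 and -0.0408 without dibromoethane replicate 1, against 0.31 without control replicate 3. Leaving out 1 array gave 0.76 to 0.94 for Ccl2, 0.48 to 0.52 for Csf1, -0.04 to 0.31 for Il1b, 0.51 to 0.99 for Cxcl1, 0.27 to 0.55 for Cxcl10 and 0.25 to 0.84 for Tnf.

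Of all features, 9 passed with all arrays. Median centring and normexp each gave 5, no filter on dim probes 2, scan day as a fixed block 2, trend and robust 17, and slide as a fixed block or only the slides with both groups 0 (3511 at an unadjusted p under 0.05). Leaving out 1 array gave 1 to 8. The blocks leave fewer degrees of freedom and the lack of a filter adds features; otherwise the cause was not tested.

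Replicate numbers 1 to 3 occur in both groups' labels, but same-numbered animals did not all deviate together (correlations of -0.19, 0.26 and 0.16 across features), so the number was not taken as a pairing. With the replicate block 0 features and 0 members passed (Ccl2 0.85, limma adjusted p = 0.346; 3462 features at an unadjusted p under 0.05). Dim probes such as Cxcl1, Ccl9 and Ccl17 are limited by signal over background. So are Itgam, Csf3r, Klrb1a, Cd79b, Tgfb2, Apoa2, Serpina1 and Fgg, which were not well above it on every array.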
